A study of Mus musculus with 3 samples.

Results

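The genes of the proteasome subunits were examined in muscle stem cells (MuSC) of wild-type C57BL/6 mice 8 weeks of age, on 3 Affymetrix MOE_430_2 arrays with 1 array per condition. All cells were sorted by FACS for CD34 and α7 integrin, with CD45, CD11b, CD31 and Sca1 as markers of depleted cells in the methods, and fresh MuSC were hybridized without culture. MuSC −OSM were cultured for 3 days in medium that the labels give as 10% FBS, and MuSC +OSM in the same medium with 100 ng/mL Oncostatin M (OSM), a cytokine of the IL-6 family. Members were the genes whose symbol in the platform annotation is Psma, Psmb, Psmc or Psmd followed by digits alone, without Psmb8 and Psmb9, which gave 37 of 18193 genes. Of these, 17 encode the core particle (Psma and Psmb) and 20 the regulatory particle (Psmc and Psmd). A gene was represented by the brightest probe set, by mean signal, among those that name it alone.

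The proteasome is the protease complex that degrades proteins tagged with ubiquitin. Its core particle (20S) is a barrel of α and β rings, with the protease sites inside on the β subunits Psmb5, Psmb6 and Psmb7, and its regulatory particle (19S) caps the barrel. The base of the cap holds a ring of ATPases, Psmc1 to Psmc6, which unfold substrates, and the lid removes the ubiquitin chain before degradation. In skeletal muscle the ubiquitin-proteasome system is best known for its part in protein breakdown during atrophy.

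Signals are MAS5 values, linear and in arbitrary units, which the authors scaled to a common mean on all arrays. They are given in the order fresh, −OSM and +OSM unless stated otherwise. The floor used for ratios was a signal of 40, the median of all signals. All 35 measured subunits lay above the floor on each array, so their ratios do not depend on it. The other members were Psma8, a subunit of the testis, with signals of 18, 17 and 8, and Psmb11, a subunit of thymic epithelium, with 2, 23 and 10, which lay under the floor throughout. With 1 array per condition no test was possible. Ratios lack a replicate check, and their precision is limited by the number of arrays. In such bulk samples fewer cells of a type and less RNA per cell cannot be told apart.

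The 3′ to 5′ signal of control probe sets and markers of other cell types differed between fresh and cultured MuSC. The ratio of 3′ to 5′ signal for β-actin was 2.35 in fresh MuSC, against 1.40 and 1.41 on the culture arrays. That for Gapdh was 1.36 in fresh MuSC, against 1.14 in MuSC −OSM and 0.90 in MuSC +OSM. RNA integrity itself was not measured here. Of 7 satellite cell markers 7, 5 and 5 were above the floor, with Pax7 (4006, 282 and 431), Myf5 (7016, 561 and 1855), Vcam1 (6363, 464 and 493) and Cdh15 (898, 569 and 698) above it on every array and lower in culture. The sort marker Cd34 (2222, 34 and 15) and Calcr (2562, 35 and 6) were under it in culture, and Itga7, the other sort marker, was higher there (499, 1808 and 1238). Fibroblast markers were above the floor for 4 of 4 genes in fresh MuSC, with a summed signal of 13862 (12179 of it from Dcn), for 1 of 4 in MuSC −OSM with 128, and for 4 of 4 in MuSC +OSM with 623. A further listed gene, Ly6a, which encodes the depleted Sca1, has no probe set that names it alone in the annotation used. Leukocyte markers were above it for 3, 1 and 1 of 7 genes, with summed signals of 1402, 172 and 243. Lyz2 (1204, 13 and 13) gave most of the fresh sum, Csf1r (58, 62 and 149) was highest with OSM, and Ptprc, which encodes the depleted CD45, was at 1, 2 and 7. Endothelial markers were above it for 3, 1 and 0 of 4 genes, with summed signals of 1122, 80 and 79. Tek (791, 42 and 25) and Cdh5 (268, 6 and 22) gave most of it, and Pecam1, which encodes the depleted CD31, was at 4, 4 and 2. Digestion and sorting preceded lysis for fresh MuSC, by the methods. The part of RNA integrity, of other cells and of the digestion in the subunit ratios was not tested.

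Proteasome subunit genes were higher in cultured MuSC than in fresh MuSC. In MuSC −OSM the signal was above that of fresh MuSC for 35 of 35 measured subunits, by at least 2-fold for 25 and by at least 3-fold for 17. Of the 12755 measured genes 43.5% were higher by any amount and 947 by at least 3-fold. The share of genes at least 2-fold higher in this comparison was 15.0% of measured genes, 17.4% of genes above the floor on all 3 arrays and 30.7% of the 1926 genes with a mean signal of 1000 or more. Of the 28 subunits with such a mean, a cutoff chosen after the values were seen, 22 were at least 2-fold higher. This mean is taken over all 3 arrays, so a high signal in culture alone can carry a gene past the cutoff. The median log2 ratio of the 1926 genes was 0.36. The median log2 ratio of the subunits was 1.56 (95% binomial interval across genes 1.16 to 1.73), a median fold of 2.95, and that of all measured genes was -0.14. This interval covers the spread between genes and not the error of the arrays. With arrays centred on their medians, the median of all measured genes moved to 0.37. Then 28.2% of measured genes were at least 2-fold higher and 12.1% lower, against 15.0% and 20.4% as deposited. All 35 subunits were higher with centring too, as were 64.6% of measured genes. The difference of 32 subunits was larger than 0.45, the median by which a pair of probe sets of the same gene differed in this log2 ratio over 4083 genes. Of all measured genes the lower quartile was -0.81 and the upper 0.56, both beyond it too. The pairs were read on the same arrays, so the measure leaves out differences between arrays.

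**Figure D1:**
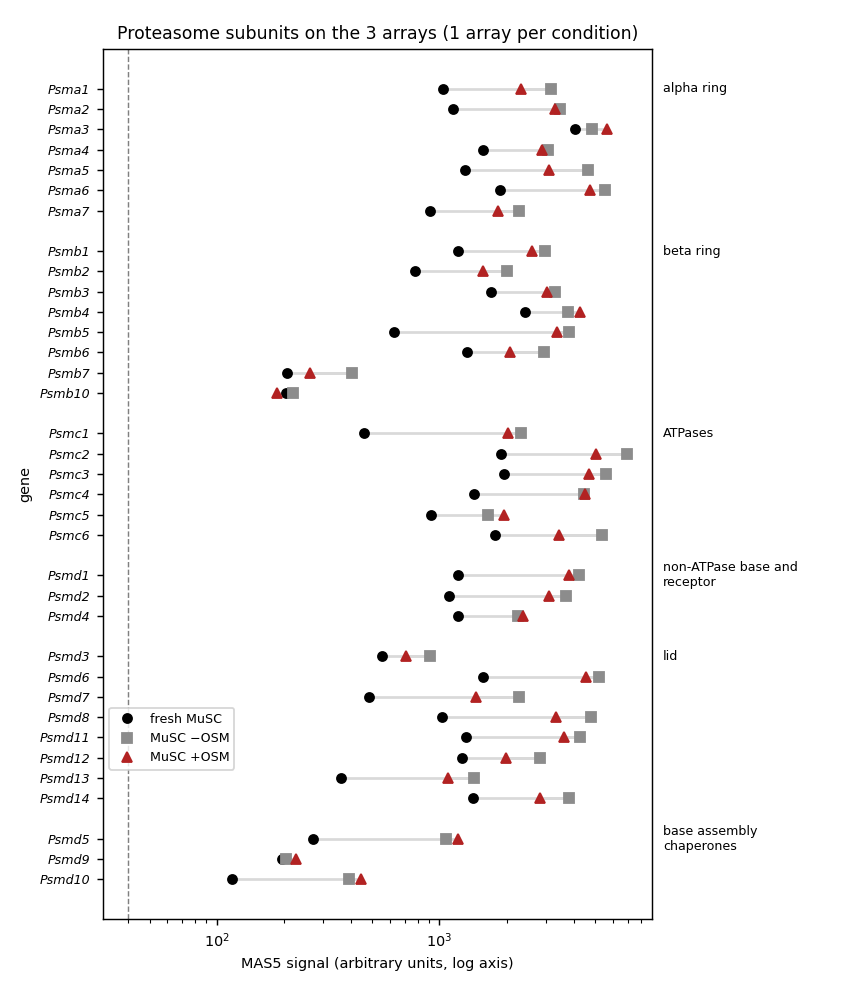
MAS5 signal on a log axis for the 35 measured proteasome subunits, grouped by their place in the complex. Black circles show fresh MuSC, gray squares MuSC −OSM and red triangles MuSC +OSM, with 1 array per symbol, and the floor of 40 is dashed. Fresh MuSC are lowest for 34 of the 35 genes, with Psmb10 as the exception, and Psmb5 has the widest gap, from 622 to 3806.

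In the core particle, 9 of 15 measured subunits were at least 2-fold higher in MuSC −OSM than in fresh MuSC, with a median log2 ratio of 1.29 (interval 0.95 to 1.60). The protease subunits did not move alike. Psmb5, which carries the chymotrypsin-like site, had signals of 622, 3806 and 3361. Psmb6, with the caspase-like site, had 1329, 2935 and 2067, and Psmb7, with the trypsin-like site, had 206, 403 and 263. Psmb5 was thus 6.12-fold higher in MuSC −OSM, the highest ratio of all measured subunits, against 2.21-fold for Psmb6 and 1.96-fold for Psmb7. Psmb10, the cytokine-inducible subunit that takes the place of Psmb7 in the immunoproteasome, had signals of 205, 220 and 186. Its signals lay within 1.18-fold of one another on the 3 arrays, and it was the lowest ratio of the core. The inducible subunits outside the rule were near the floor, with Psmb8 at 78, 35 and 51 and Psmb9 at 57, 45 and 52.

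Of the α ring, through which substrates enter the barrel, 5 of 7 subunits were at least 2-fold higher in MuSC −OSM. Psma5 and Psma1 had the highest ratios, with signals of 1299, 4617 and 3102 for Psma5 and 1041, 3161 and 2319 for Psma1. Both were lowest in fresh MuSC and highest in MuSC −OSM, as were Psma2 (1146, 3473 and 3294), Psma6 (1865, 5507 and 4752) and Psma7 (910, 2273 and 1829). The structural β subunits Psmb1 (1215, 2981 and 2608) and Psmb2 (778, 2002 and 1563) had the same order. Psma3 had the lowest ratio of the ring, with 4059, 4820 and 5666, and its 1.19-fold difference had the opposite sign after quantile normalization (log2 ratio -0.03). Psmb4 of the β ring was also among the 3 lowest ratios of the core, at 2409, 3754 and 4290. Psma4 at 1.97-fold and Psmb3 at 1.94-fold lay just under 2-fold, as did Psmb7, although another probe set of Psmb3 was 3.87-fold higher.

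In the regulatory particle, 16 of 20 subunits were at least 2-fold higher in MuSC −OSM than in fresh MuSC, with a median log2 ratio of 1.72 (interval 1.44 to 1.88). The ATPase Psmc1 had signals of 458, 2326 and 2039, a 5.08-fold difference between fresh MuSC and MuSC −OSM. All 6 ATPases were higher, with a median log2 ratio of 1.63, and the lowest was Psmc5 at 919, 1650 and 1943. Psmc2 had 1885, 6949 and 5062, Psmc3 1947, 5571 and 4683, Psmc4 1426, 4466 and 4476, and Psmc6 1766, 5382 and 3442. These 4 ATPases were 2.86-fold to 3.69-fold higher in MuSC −OSM. Of the lid, 7 of 8 subunits were at least 2-fold higher. Psmd7 had signals of 481, 2265 and 1464, and Psmd8 had 1027, 4786 and 3322, ratios of 4.71-fold and 4.66-fold. Psmd14, the deubiquitinase of the lid, had 1413, 3826 and 2833. Psmd6 (1565, 5220 and 4564), Psmd11 (1313, 4274 and 3607), Psmd12 (1264, 2821 and 1991) and Psmd13 (362, 1432 and 1095) are structural subunits of the lid and were also lowest in fresh MuSC, whereas Psmd3 at 553, 911 and 709 was the lid subunit within 2-fold. Psmd1 (1217, 4214 and 3795) and Psmd2 (1109, 3687 and 3099), the scaffold subunits of the base, were 3.46-fold and 3.32-fold higher, and the ubiquitin receptor Psmd4 (1213, 2249 and 2376) was 1.85-fold higher. Psmd5, Psmd9 and Psmd10 are chaperones that help to assemble the base and are not part of the finished particle. Psmd5 had 271, 1069 and 1207 and Psmd10 had 117, 391 and 444, both at least 3-fold higher in MuSC −OSM. Psmd9 had 196, 204 and 227, the lowest ratio of all measured subunits.

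The median log2 ratio of MuSC −OSM over fresh MuSC was 0.42 higher for the regulatory than for the core particle. The intervals of these medians overlap, from 0.95 to 1.60 for the core and from 1.44 to 1.88 for the regulatory particle, and the difference was 0.21 when each gene was given the median of all its probe sets. Within each particle the log2 ratios ranged further than this, from 0.10 to 2.61 in the core and from 0.06 to 2.34 in the regulatory particle. The interquartile range of the log2 ratios was 0.79 for the 35 subunits, against 1.43 for genes above the floor on all 3 arrays.

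MuSC +OSM were compared with fresh MuSC in the same way. These ratios share the fresh array with those of MuSC −OSM, so they are no second reading of the difference. In MuSC +OSM, 34 of 35 subunits had a higher signal than in fresh MuSC, against 43.5% of measured genes. Of the subunits 23 were at least 2-fold higher. The share was 13.8% of measured genes and 15.8% of those above the floor on all 3 arrays. It was 27.2% of genes with a mean signal of 1000 or more. The median log2 ratio of the subunits was 1.16 (interval 0.97 to 1.48), with 1.01 in the core and 1.47 in the regulatory particle. Of the 28 subunits with such a mean signal, 20 were at least 2-fold higher, and this cutoff has the limit given above. Centring moved the share of all measured genes at least 2-fold higher to 33.8% and lower to 8.33%, from 13.8% and 17.2%, and the median of all measured genes to 0.57. The count of subunits at least 2-fold higher was 33 with centring and 18 after quantile normalization, where the share of measured genes was 17.3%. The difference between the particles was 0.46, and 0.17 with the median of all probe sets. Psmb5 was again highest, at 5.40-fold, followed by Psmd5 and Psmc1, both at 4.45-fold. Psmb10 was 1.10-fold below its signal in fresh MuSC, but higher after median centring or quantile normalization. Psmd14 at 2.00-fold, and Psmb2 and Psma7 at 2.01-fold, lay at the threshold, and Psmd4 and Psmc6, at 1.96-fold and 1.95-fold, just under it.

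**Figure D2:**
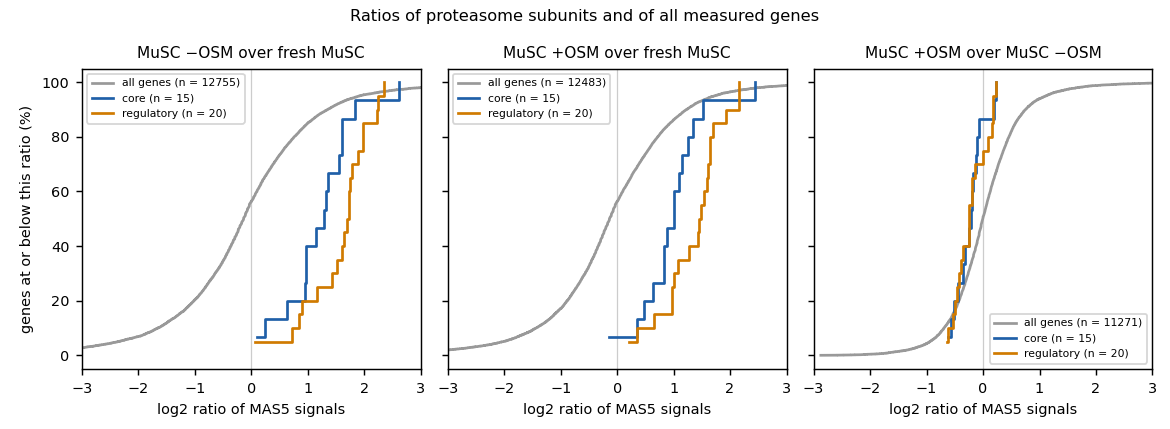
Cumulative share of genes (vertical axis, %) against the log2 ratio of MAS5 signals for core subunits in blue, regulatory subunits in orange and all measured genes in gray, with 1 panel per comparison and the number of genes in each legend. Both particles lie to the right of all genes in the comparisons with fresh MuSC, with medians of 1.29 and 1.72 in MuSC −OSM, and slightly to the left, at -0.21 and -0.25, in MuSC +OSM over MuSC −OSM.

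With OSM the subunits differed little from culture without it. In MuSC +OSM 27 of 35 subunits had a lower signal than in MuSC −OSM, against 50.2% of measured genes, 47.9% of genes above the floor on all 3 arrays and 55.5% of genes with a mean signal of 1000 or more. None of the 35 was at least 2-fold lower, against 4.39% of measured genes, and none was at least 2-fold higher. The median log2 ratio was -0.24 (interval -0.36 to -0.15), or 1.18-fold lower, and that of all measured genes was -0.01. It was -0.072 with arrays centred on their medians and -0.11 after quantile normalization, where the medians of all measured genes were 0.16 and -0.03. The share of measured genes at least 2-fold higher was 6.07% and lower 4.39%, against 8.42% and 3.24% with centring. Under all 3 scalings 23 subunits were lower and 8 were higher, while the direction of Psma2, Psma4, Psmb3 and Psmd1 changed. A pair of probe sets of the same gene differed in this log2 ratio by a median of 0.32 over 4083 genes. The ratios of 13 subunits, all lower, exceeded this. Of all measured genes the lower quartile was -0.34 and the upper 0.36, both beyond it too. Such pairs share their arrays, so this measure leaves out differences between arrays.

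The lowest ratios with OSM were those of Psmc6 of the ATPase ring and Psmd7 of the lid. Psmc6 had signals of 5382 in MuSC −OSM and 3442 in MuSC +OSM (1766 in fresh MuSC), a log2 ratio of -0.64, and Psmd7 had one of -0.63. Psmb7, Psma5, Psmd8 and Psmb6 followed at -0.62, -0.57, -0.53 and -0.51. At a threshold of 1.5-fold the lower subunits were Psmc6, Psmd7 and Psmb7, against 1474 of 11271 measured genes. Psmd7 was the one member whose other probe set went the other way by as much (56 and 92, a log2 ratio of 0.72). Other probe sets of Psmc6 had log2 ratios of -0.15 and -0.36, short of 1.5-fold, and another of Psma5 had -0.17. All 8 lid subunits were lower with OSM under each of the 3 scalings, with a median of -0.41 and a range from -0.63 to -0.19 as deposited. Of all measured genes 50.2% were lower as deposited, 38.7% with centring and 52.2% after quantile normalization. Of the groups within the particles only the lid was followed under each scaling. Its median was -0.24 with centring and -0.39 after quantile normalization, and Psmd6 was then at -0.024 and -0.016. By contrast the 3 base assembly chaperones were slightly higher, at 0.15 to 0.18. Psmc5, Psma3 and Psmb4 had the highest ratios of the mature particle, at 0.24, 0.23 and 0.19. For Psmb4 the direction depended on the probe set, since its other one was lower with OSM (5061 and 4455, a log2 ratio of -0.18). The medians of the core and the regulatory particle were -0.21 and -0.25, which differ by less than the spread within either particle.

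Other probe sets of the same genes gave a second reading of each array, although not of the condition. Of the 35 measured subunits 19 have several probe sets, and 29 further probe sets of 17 subunits lay above the floor on at least 1 array. In MuSC −OSM over fresh MuSC 20 of these were higher, 16 by at least 2-fold, and 9 were lower, 4 by at least 2-fold. The lower ones belong to Psma1, Psma3, Psmd7, Psmd9 and Psmd13. For Psma1 the main probe set had signals of 1041 in fresh MuSC and 3161 in MuSC −OSM, and another had 148 and 70. For Psmd7 another probe set had 114 and 56, and for Psmd13 one had 66 and 38, all opposite to their main probe sets. The other probe set of Psma3 had 356 and 118. Which transcripts these probe sets detect was not tested. For Psmb3 and Psmb4 the choice mattered the other way. The second probe set of Psmb3 had 856, 3313 and 2269, a 3.87-fold difference between fresh MuSC and MuSC −OSM against 1.94-fold from the main one, and that of Psmb4 had signals of 842, 5061 and 4455, or 6.01-fold against 1.56-fold. In MuSC +OSM over MuSC −OSM 19 of the 29 other probe sets were lower and 6 were higher.

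**Figure D3:**
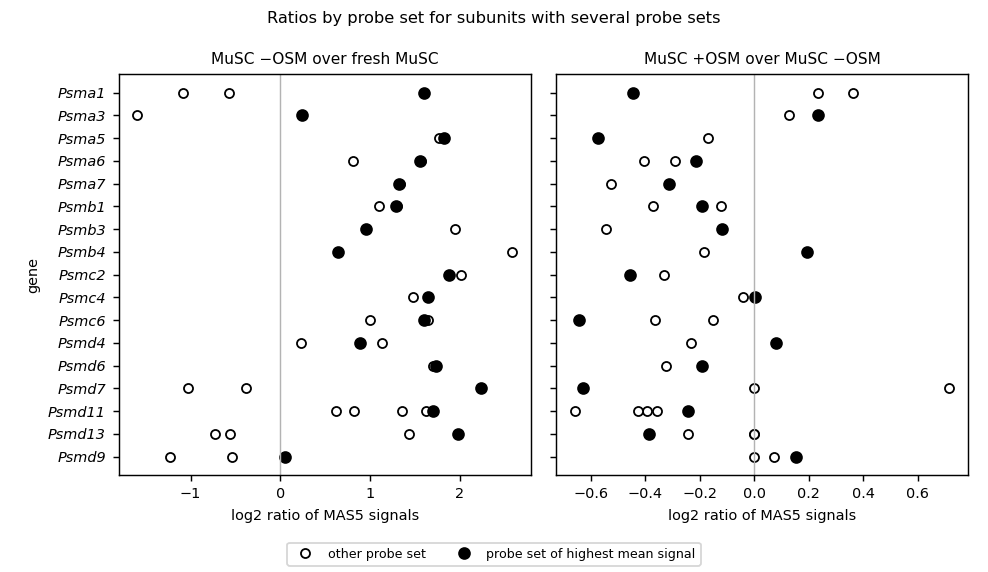
Log2 ratio of MAS5 signals for each probe set of the 17 subunits with further probe sets above the floor on at least 1 array, with the probe set of highest mean signal as a filled circle and the others as open circles, for MuSC −OSM over fresh MuSC (left) and MuSC +OSM over MuSC −OSM (right). On the left most circles lie right of 0, with open circles of Psma1, Psma3, Psmd7, Psmd13 and Psmd9 left of it, and on the right the axis is narrower and most circles lie left of 0.

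Genes that work with the proteasome were set beside it from lists written with earlier results of these arrays known. Assembly chaperones of the core were at least 2-fold higher in MuSC −OSM than in fresh MuSC for 2 of 5 genes, with a median log2 ratio of 0.60. The share at least 2-fold higher was 15.0% of measured genes and 30.7% of genes with a mean signal of 1000 or more. Pomp, which matures the core, had signals of 1507, 3449 and 2724, and Psmg3 had 173, 587 and 442. Both were highest in MuSC −OSM. Psmg1 (440, 628 and 659) and Psmg2 (640, 967 and 1041) were highest in MuSC +OSM, and Psmg4 (332, 206 and 228) in fresh MuSC. Of the activators that replace the regulatory particle on the core, Psme4 (PA200) had 1287, 5926 and 3072 and Psme3 (PA28γ) had 140, 474 and 286. Psme1, a subunit of the interferon-inducible activator PA28, ran the other way with 769, 299 and 355, and Psme2 has no probe set that names it alone in the annotation used. Psme4 had the lowest ratio of this list with OSM, at 1.93-fold below MuSC −OSM.

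Ubiquitin receptors, shuttle factors and deubiquitinases of the proteasome were at least 2-fold higher in MuSC −OSM for 3 of 10 genes, against 15.0% of measured genes and 30.7% of genes with a mean signal of 1000 or more, with a median log2 ratio of 0.62. Usp14, a deubiquitinase bound to the base, had signals of 487, 2179 and 1539. Txnl1 had 1813, 4122 and 3039, and Sem1, the small lid subunit that the symbol rule does not take, had 2081, 4304 and 3012. These 3 genes were thus lowest in fresh MuSC, as were most subunits. Ubqln2 (1891, 1458 and 1735) and Ecpas (639, 588 and 854), a shuttle factor and a protein that binds the proteasome, had lower signals in MuSC −OSM than in fresh MuSC. Genes of the p97 segregase, which extracts ubiquitinated proteins, were at least 2-fold higher for 2 of 6, with Vcp at 4451, 9053 and 6966 and Nploc4 at 141, 348 and 233. Among the transcription factors of subunit genes and their processing enzymes, 0 of 6 differed by 2-fold in any of the 3 comparisons, in which 64.5%, 69.0% and 89.5% of all measured genes lay within 2-fold too. Nfe2l1, which raises subunit genes when the proteasome is impaired, had 551, 926 and 523, and its relative Nfe2l2 had 1699, 1626 and 2261. Only 1 of 6 genes for ubiquitin and its activating enzymes has a probe set of its own here.

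A pair of other complexes was listed for comparison, the COP9 signalosome, whose subunits resemble those of the lid, and the CCT chaperonin, a protein folding complex. In MuSC −OSM over fresh MuSC the COP9 list was at least 2-fold higher for 4 of 9 genes (median log2 ratio 0.87) and the CCT list for 5 of 8 (1.18), against 25 of 35 proteasome subunits (1.56). The share was 15.0% of measured genes and 30.7% of genes with a mean signal of 1000 or more. Cops6 had the highest ratio of the first, with 690, 2264 and 1986, and Cct8 of the second, with 1883, 5027 and 3943. In MuSC +OSM over MuSC −OSM the medians were -0.18 for COP9 and -0.40 for CCT, where 8 of 8 genes were lower as deposited, against -0.24 for the proteasome. Of all measured genes 50.2% were lower in this comparison, and of those with a mean signal of 1000 or more 55.5%. These differences between lists were not tested.

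**Figure D4:**
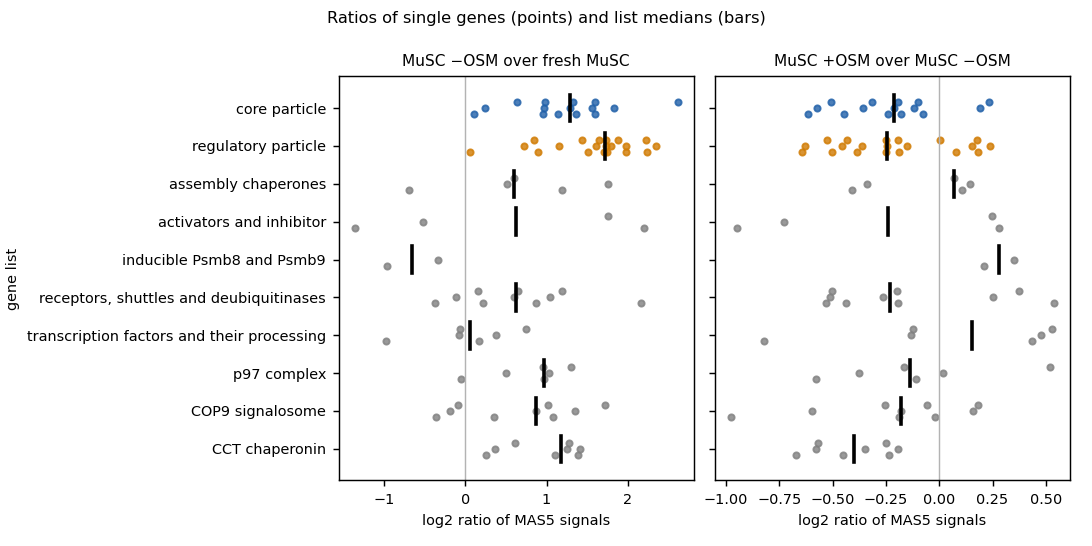
Log2 ratio of MAS5 signals of single genes (points) and the median of each list (black bars) for the core and regulatory particle and 8 related lists, for MuSC −OSM over fresh MuSC (left) and MuSC +OSM over MuSC −OSM (right, narrower axis). On the left the regulatory and core particles have the highest bars, at 1.72 and 1.29, followed by CCT at 1.18, and on the right the CCT bar is lowest at -0.40.

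The promoters of the members were searched because the genes, spread over 15 chromosomes, had higher signals together in culture. RefSeq windows of 300 bases (GRCm38.p6), 250 before and 50 after a gene start, were held for 29 of the 35 measured subunits. These genes have 31 windows, since the table holds a second start for Psma6, 14603 bases after the first, and for Psmc2, 1472 bases after it, and a gene counted when any of its windows held a match. Each was searched on both strands for the antioxidant response core TGACNNNGC, to which Nfe2l1 and Nfe2l2 bind with small Maf proteins, for CCAAT, the NF-Y motif, and for CCGGAAG, an ETS family motif. The antioxidant response core was found for 5 of 29 subunits (17.2%), against 16.2% of 14452 genes on the array and 12.4% of all promoter windows. Each match is printed with the core in capitals and the strand on which it reads. They lie 47 bases before the start used in the table in Psmb5, 9 in Psmb6, 31 in Psmd9, 227 in Psmc6 and 247 in Psmd12.
Psmb5, chr14:54618024-54618052, minus strand: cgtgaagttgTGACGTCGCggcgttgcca
Psmb6, chr11:70525338-70525366, plus strand: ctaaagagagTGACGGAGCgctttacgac
Psmc6, chr14:45329587-45329615, minus strand: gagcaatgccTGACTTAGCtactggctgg
Psmd9, chr5:123228149-123228177, plus strand: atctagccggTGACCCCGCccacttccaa
Psmd12, chr11:107479278-107479299, minus strand: ggggcaaatgTGACACAGCaga

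The genes that hold this core include the highest and the lowest ratio of MuSC −OSM over fresh MuSC, Psmb5 at a log2 ratio of 2.61 and Psmd9 at 0.06. The median was 1.16 for the 5 genes with a match and 1.62 for the 24 without. In MuSC +OSM over fresh MuSC these medians were 0.66 and 1.39, and in MuSC +OSM over MuSC −OSM they were -0.50 and -0.19. The difference between genes with and without a match was not tested. CCAAT was found for 11 of 29 subunits (37.9%), against 42.0% of genes on the array and 37.4% of all windows. The ETS motif was found for 10 of 29 subunits (34.5%), against 15.0% of genes on the array and 8.86% of all windows, and for 9 of 17 genes of the regulatory particle but 1 of 12 of the core. The match in the core is that of Psma6 at its second start. With only the most upstream window of each gene, a choice made after the matches were seen, it was found for 9 of 29 subunits, against 13.8% of genes on the array, and for 0 of 12 of the core. In 8 of the 10 genes a match begins within 50 bases before a start in the table, which is the second start for Psma6 and Psmc2, and these are shown with the motif in capitals to let the flanking bases be compared.
Psma6 (second start), chr12:55398813-55398839, plus strand: cgccggtgctCCGGAAGcagtagccat
Psmc1, chr12:100110164-100110190, minus strand: atcgccaccgCCGGAAGtgcatccacc
Psmc2 (second start), chr5:21786713-21786739, minus strand: ctcttccccaCCGGAAGtagctccgcg
Psmd2, chr16:20651616-20651642, minus strand: gtcctccagaCCGGAAGcgccctgcgg
Psmd6, chr14:14120974-14121000, minus strand: agagacgcgaCCGGAAGtcagactggc
Psmd11, chr11:80428594-80428620, minus strand: aaacacacacCCGGAAGacccgccctc
Psmd12, chr11:107479501-107479527, minus strand: gtcactcgcaCCGGAAGtcgcccgctc
Psmd13, chr7:140882378-140882404, plus strand: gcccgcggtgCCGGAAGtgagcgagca

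Psmc6 and Psmd4 hold a match further from the start, at 100 and 125 bases before it. A match is a description of the letters in these windows and does not show that a factor binds there.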

How the data were processed

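RNA was measured on 3 Affymetrix MOE_430_2 arrays, 1 per condition, with conditions taken from the labels. The methods state that MAS5 was used on the scans (version not given in the sources used here). Values deposited by the authors are MAS5 signal intensity, linear, scaled to a common trimmed mean and rounded to whole numbers. The labels give 10% FBS, whereas the methods give another share for standard culture.

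Ratios were computed with pandas 2.3.3, numpy 2.4.6 and scipy 1.17.1 in Python 3.11.15, and matplotlib 3.10.9 drew the plots. Of 45037 probe sets, after 64 controls were left out, 34945 name 1 gene, 932 several and 9160 none in the platform annotation, and the first kind was used. All 37 members kept their symbol in the RefSeq gene table (GRCm38.p6). Signals under 40 were set to 40 before log2 ratios, and a gene counted as measured with at least 1 array of the comparison above this floor. Counts at 2-fold stand beside the share of all genes, without a test or p-value. Medians carry 95% binomial intervals, taken over genes. Members and lists were chosen with earlier results of these data known. Genes were named by rule: the protease subunits and Psmb10, the 3 highest and 3 lowest ratios of each particle, members at least 2-fold apart, with opposed probe sets or under the floor, up to 3 genes at least 2-fold apart in each related list, and Nfe2l1, Nfe2l2, Psme1, Psme2, Psmb8, Psmb9 and Pomp. Psma4, Psmb3, Psmd4, Psmg1, Psmg2, Psmg4, Ubqln2, Ecpas and the marker genes were named outside this rule, after their values were seen. The steps were tested on simulated data. Alternatives were the scaling, the floor, how probe sets of a gene were combined, the membership and the fold threshold.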

Additional observations from a re-analysis of the deposited data

How the results depend on the processing

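Under other settings 14 recomputed values moved and 85 stayed within the interval of the median or within 1.5 times the count, and 0 medians changed sign. With arrays centred on their medians, the median log2 ratio of MuSC −OSM over fresh MuSC was 2.12 for all subunits, 1.85 for the core and 2.28 for the regulatory particle, and that of MuSC +OSM over fresh MuSC was 1.88, 1.73 and 2.20. The same centring gave -0.072 for all subunits and -0.043 for the core in MuSC +OSM over MuSC −OSM. Quantile normalization gave 1.43 for the regulatory particle in MuSC −OSM over fresh MuSC, and -0.11 for all subunits and -0.093 for the core in MuSC +OSM over MuSC −OSM. By construction, centring shifts all genes of an array alike, and the difference between the particles with it did not change. Without a floor, MuSC +OSM had 1 subunit at least 2-fold below fresh MuSC and 2 below MuSC −OSM, all of them Psma8 or Psmb11, which lie under the floor on every array. At 1.5-fold, 3 subunits were below MuSC −OSM in MuSC +OSM, against 1474 of 11271 measured genes. The number of subunits higher in the other comparisons stayed within 1.5 times. No paired analysis was possible because each condition has 1 array. Signals near the floor limit what can be said of Psma8, Psmb8, Psmb9 and Psmb11.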
